A study of Mus musculus with 12 samples.

Results

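The cytosolic chaperonin CCT, also called TRiC, is described here through the mRNA of its 8 subunit genes, Tcp1 (which encodes the alpha subunit), Cct2, Cct3, Cct4, Cct5, Cct6a, Cct7 and Cct8. They were taken as a listed complex by gene symbol, and all 8 were found among the 17090 genes of the count table and passed the filter on low counts. The complex was chosen by the measured counts of these genes over the 6 time points. Their changes over time are therefore given as a description, no p-value is printed for a subunit, and counts of called subunits are read for nothing beyond the count.

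The samples were MTΔECad cells, a mesenchymal mouse breast cancer line whose name marks the loss of E-cadherin in every group. They were seeded at 20000 cells per cm2, kept overnight, and harvested at 0 h, 6 h, day 3, day 5, day 7 and day 10 of a protocol that makes adipocytes out of them. By the protocol, human recombinant BMP2 (a bone morphogenetic protein) was given at 200 ng/ml alone for the first 3 days, BMP2 with 2 µM rosiglitazone (an agonist of the fat cell receptor PPARγ) for the next 4 days, and 2 µM rosiglitazone alone for the last 3 days. Each of the 6 time points had 2 libraries, from 2 independent experiments; whether the line is a single clone was not given, and the 12 libraries hold no time-matched cells without treatment, so time in culture, density and treatment cannot be told apart.

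CCT is a pair of stacked rings, each built from all of the subunits, that closes over a newly made protein and lets it fold in a chamber driven by ATP. Actin and tubulin are its classical clients and cannot fold without it, and several proteins built of WD40 repeats, among them regulators of mitosis and G protein beta subunits, also pass through it. Prefoldin hands nascent actin and tubulin to the rings, and phosducin-like proteins and PDCD5 bind CCT and adjust its work. In yeast, CCT2, CCT4 and CCT5 are known to bind ATP tightly and CCT3, CCT6 and CCT8 weakly, so the subunits are not interchangeable.

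The subunit genes lie on 8 different chromosomes. In GENCODE coordinates (GRCm38) they are Tcp1 at chr17:12915701-12925067, Cct2 at chr10:117051001-117063814, Cct3 at chr3:88297116-88321767, Cct4 at chr11:22990519-23003780, Cct5 at chr15:31590800-31601804, Cct6a at chr5:129786998-129846371, Cct7 at chr6:85451514-85468475 and Cct8 at chr16:87483326-87495873. RefSeq promoter windows (GRCm38.p6) were matched for 7 of the 8, the other being Cct4. The bases just upstream of the start are shown for the 4 genes with over 100 such bases outside any exon annotated by GENCODE. They read 5′ to 3′ on the gene's own strand, with matches to any motif searched in capitals.
Cct3 (chr3:88297000-88297115, plus strand): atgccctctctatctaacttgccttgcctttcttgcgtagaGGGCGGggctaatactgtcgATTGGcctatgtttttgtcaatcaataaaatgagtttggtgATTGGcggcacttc
Cct7 (chr6:85451284-85451504, plus strand): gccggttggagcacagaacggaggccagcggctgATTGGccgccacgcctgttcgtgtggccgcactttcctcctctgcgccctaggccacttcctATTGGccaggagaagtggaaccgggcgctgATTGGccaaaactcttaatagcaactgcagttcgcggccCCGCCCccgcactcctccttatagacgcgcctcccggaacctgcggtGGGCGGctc
Cct2 (chr10:117063853-117064102, minus strand): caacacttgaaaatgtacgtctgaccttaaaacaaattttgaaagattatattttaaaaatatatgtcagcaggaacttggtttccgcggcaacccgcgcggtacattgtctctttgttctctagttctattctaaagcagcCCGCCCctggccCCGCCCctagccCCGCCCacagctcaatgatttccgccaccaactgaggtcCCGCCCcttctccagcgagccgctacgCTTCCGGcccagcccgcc
Cct8 (chr16:87495874-87495998, minus strand): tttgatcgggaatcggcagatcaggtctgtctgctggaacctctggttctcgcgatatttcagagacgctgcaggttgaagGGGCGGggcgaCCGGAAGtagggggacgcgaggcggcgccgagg

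The Cct3 and Cct7 stretches hold GC boxes beside CCAAT boxes, and the Cct2 and Cct8 stretches hold GC boxes beside an ETS motif. The GC box (GGGCGG) was present in the 250 bases upstream of all 7 matched subunit genes, against 53.8% of the 12872 genes of the count table with a window. For Tcp1, Cct6a and Cct5, 250, 250 and 245 of these bases lie in exons annotated for any gene. Every match counted for those genes, to any motif, is in such exons. The CCAAT box (CCAAT) was present in 4 of 7 (Tcp1, Cct3, Cct6a and Cct7), against 36.5%, and reads as ATTGG in the Cct3 and Cct7 stretches, which hold 2 and 3 copies. The ETS motif CCGGAAG was present in 2 of 7 (Cct2 and Cct8), against 12%. Of the heat shock half-site pairs, TTCNNGAA was in 1 of 7 (Cct5), against 6.11%, and GAANNTTC was in none, against 5.24%. The E-box CACGTG (7.92% of windows) and the ZNF143 motif (3.58%) were in none of the 7. Both strands were searched, 1 window was used per gene, no match overlapped one to another motif, and a match is a run of letters and not evidence of binding.

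Library totals ran from 12820802 to 17570366 counts, and each subunit had between 1507 and 16923 counts in every library, so counting error was small. The spread between the 2 libraries of a time point had a median of 2.22% of the mean (at most 7.77%) over the subunits and times. Tcp1 shares exonic bases with Mrpl18 and Acat3 on the opposite strand, Cct6a with Psph, Cct7 with Pradc1 and Cct8 with Usp16; reads of such partners cannot be told apart if counting ignored strand. The label of the cells was checked with marker genes. The mesenchymal genes Vim and Cdh2 were expressed at every time, and Cdh1, the E-cadherin gene, stayed between 0.0692 and 1.09 CPM. Vim, Cdh2 and Fn1 were all called lower at day 10, at 30.4%, 30.3% and 30.9% of their 0 h means, beside 32.8% for the summed CCT mRNA. Their courses differed: Fn1 had 6988 and 12600 CPM at day 3, against 1339 and 1953 CPM at 0 h. Vim and Cdh2 were at 34.2% and 64.3% of their 0 h means at day 3. The epithelial marker Epcam (at most 8.09 CPM) was called higher at day 10. The adipocyte markers Adipoq, Fabp4, Plin1, Cd36 and Lpl were each higher at day 10 than at 0 h (5 of 5 called). The proliferation markers Mki67, Top2a, Cdk1, Ccnb1 and Mcm5 were each lower (5 of 5). Of all tested genes, 42.8% were called higher and 39.9% lower at day 10 against 0 h. Of 9 leukocyte, endothelial and muscle markers, 4 passed the filter. Of these Cd68 (at most 8.17 CPM), Pecam1 (at most 3.98 CPM) and Des (at most 1.17 CPM) were called higher at day 10 than at 0 h and Cdh5 (at most 0.808 CPM) lower. The 7 markers of this list in the table summed to 7.7 and 8.04 CPM at day 10, against 1.91 and 1.92 CPM at 0 h, and their part in the CCT change was not tested. The leukocyte marker Ptprc, the endothelial marker Kdr and the muscle marker Myh3 had 0 or 1 count in each library, and Adgre1 and Myog had no row.

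The 8 subunit mRNAs summed to 6161 and 5898 CPM (library-scaled counts) in the 0 h pair, 6075 and 5885 in the 6 h pair and 3402 and 3351 in the day 3 pair. The later sums were 2781 and 2676 (day 5), 2262 and 2283 (day 7) and 1943 and 2008 CPM (day 10). Relative to its 0 h mean, the sum was 99.2% (6 h), 56.0% (day 3), 45.3% (day 5), 37.7% (day 7) and 32.8% (day 10). The steepest part lay between 6 h and day 3, the phase of BMP2 alone, and the sums of successive time points from day 3 on did not overlap. As a plain share of all counts with no scaling, CCT took 0.159% and 0.169% of the day 10 libraries, against 0.654% and 0.627% of the 0 h libraries. In these bulk samples fewer cells of a type and less RNA per cell cannot be told apart.

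**Figure D1:**
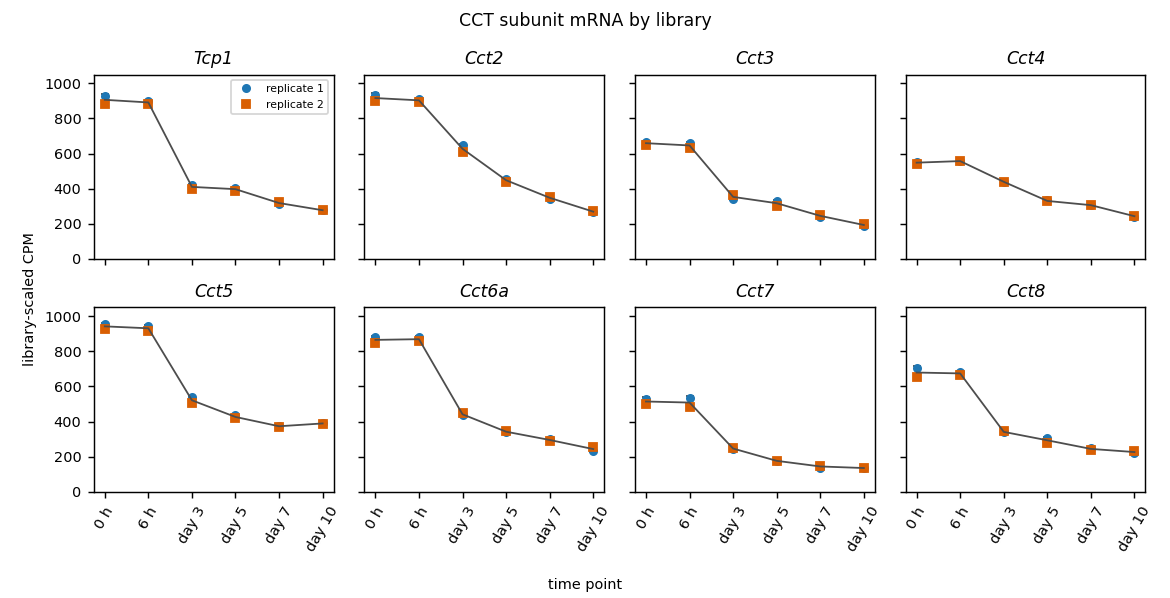
Library-scaled CPM (vertical axis, from 0) of each CCT subunit gene at the 6 time points (horizontal axis). Points are the 2 libraries, lines join the means and bars are the SD; every subunit is within 98.0% to 102% of its 0 h mean at 6 h and lower from day 3 on, and Cct5 averages 389 CPM at day 10, against 373 CPM at day 7.

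Tcp1, named after the mouse t-complex and the first subunit known, had 930 and 883 CPM at 0 h, and its 6 h libraries had 900 and 883. The day 3 pair had 421 and 398, the day 5 pair 405 and 389, the day 7 pair 314 and 322 and the day 10 pair 276 and 279 CPM. Most of its drop lay before day 3; the day 3 and day 5 libraries overlapped, and day 10 stood at 30.6% ± 0.243 of the 0 h mean (SD, n = 2). Cct2 had 935 and 897 CPM at 0 h, and its 6 h libraries had 911 and 895. The day 3 pair had 648 and 606, the day 5 pair 456 and 439, the day 7 pair 342 and 354 and the day 10 pair 266 and 273 CPM. Its decline was spread out, with no overlap between neighbouring times from 6 h on, and it reached 29.4% ± 0.582 of the 0 h mean at day 10.

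Cct4 kept the largest fraction of its 0 h level among the 8. It had 553 and 542 CPM at 0 h, and its 6 h libraries had 558 and 555. The day 3 pair had 438 and 439, the day 5 pair 334 and 327, the day 7 pair 305 and 307 and the day 10 pair 239 and 246 CPM. At day 3 it still held 80.1% ± 0.180 of its 0 h mean, against a range of 45.2% to 68.4% for the other 7, and at day 10 it held 44.3% ± 0.906. Human CCT4 and CCT5 are known to form rings by themselves when made in bacteria. Cct5 had 957 and 927 CPM at 0 h, and its 6 h libraries had 944 and 918. The day 3 pair had 539 and 503, the day 5 pair 435 and 418, the day 7 pair 377 and 369 and the day 10 pair 390 and 388 CPM. Its pairs declined to day 7, and its day 10 libraries then lay above those of day 7, at 41.3% ± 0.141 of the 0 h mean.

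Cct7 lost the largest fraction. It had 531 and 498 CPM at 0 h, and its 6 h libraries had 536 and 481. The day 3 pair had 242 and 249, the day 5 pair 175 and 177, the day 7 pair 138 and 149 and the day 10 pair 135 and 135 CPM, which is 26.2% of the 0 h mean. The 3 subunits that bind ATP weakly in yeast lay between these. Cct3 stood at 53.6% ± 2.61 of its 0 h mean at day 3 and 29.3% ± 0.883 at day 10, Cct6a at 51.0% ± 0.907 and 28.1% ± 2.18, and Cct8 at 50.2% ± 0.635 and 33.2% ± 1.58 (SD, n = 2). At 6 h each of them was between 98.0% and 101% of its 0 h mean.

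The comparison of day 10 with 0 h covers the whole protocol. All 8 subunits fell (8 of 8 called lower by edgeR's quasi-likelihood test at a Benjamini-Hochberg adjusted p below 0.05), where 39.9% of all 12740 tested genes were called lower and 42.8% higher. The log2 fold changes (day 10 over 0 h) were -1.93 (SE 0.075) for Cct7, -1.83 (SE 0.073) for Cct6a, -1.77 (SE 0.075) for Cct3, -1.76 (SE 0.071) for Cct2, -1.71 (SE 0.07) for Tcp1, -1.59 (SE 0.075) for Cct8, -1.28 (SE 0.069) for Cct5 and -1.17 (SE 0.064) for Cct4. Their median was -1.74, beside a median of 0.06 over all tested genes. In the order of all tested genes the subunits lay low but not at the end: 12.3% of genes had a lower fold change than Cct7 and 21.1% a lower one than Cct4.

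By phase, no subunit was called at 6 h against 0 h, where 0.212% of all genes were called lower and 0.534% higher; fold changes ran from -0.03 to 0.02 on the log2 scale. At day 3 against 0 h all 8 fell (background 35% lower and 33.1% higher), by -0.32 (Cct4) to -1.15 (Tcp1) with a median of -0.94. At day 5 against day 3, when rosiglitazone had been added, 6 of 8 fell (background 31% lower and 34% higher; median -0.33). Tcp1 (-0.05, SE 0.068) and Cct3 (-0.16, SE 0.072) were not called, and the count was 5 to 7 when single libraries were left out. At day 7 against day 5, 7 of 8 fell (background 18.8% lower and 19% higher; median -0.28), all but Cct4 (-0.11, SE 0.063), and without day 5 replicate 1, day 7 replicate 1 or day 7 replicate 2 the count was 4. At day 10 against day 7, when BMP2 had been withdrawn, 5 of 8 fell (background 13.2% lower and 15.1% higher; median -0.24). Cct5 (0.06, SE 0.069), Cct7 (-0.09, SE 0.074) and Cct8 (-0.11, SE 0.074) were not called, and the count was 3 without day 7 replicate 1 or day 10 replicate 1. These successive comparisons share libraries, so they are not independent of each other.

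The make-up of the subunit mRNA shifted along the way. Within a library, a subunit's share of the summed CCT counts needs no scaling between libraries. Cct4 made up 12.9% and 13.1% of CCT counts at day 3, against 8.98% and 9.19% at 0 h. Its share was 12.0% and 12.2% at day 5, 13.5% in both day 7 libraries and 12.3% in both day 10 libraries. Cct2 made up 19.0% and 18.1% at day 3, against 15.2% in both 0 h libraries, and 13.7% and 13.6% at day 10. Both shares thus stood above their 0 h values at day 3, and by day 10 that of Cct2 lay below its 0 h value while that of Cct4 did not.

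Tcp1 went the other way at day 3, with 12.4% and 11.9% of CCT counts, against 15.1% and 15% at 0 h. Cct5 held between 15% and 15.9% up to day 5 and made up 20.1% and 19.3% at day 10, against 15.5% and 15.7% at 0 h. Cct7 made up 6.95% and 6.72% at day 10, against 8.62% and 8.44% at 0 h. Cct3 made up 9.74% to 11.9% over all libraries, Cct8 9.93% to 11.6% and Cct6a 11.8% to 14.6%.

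**Figure D2:**
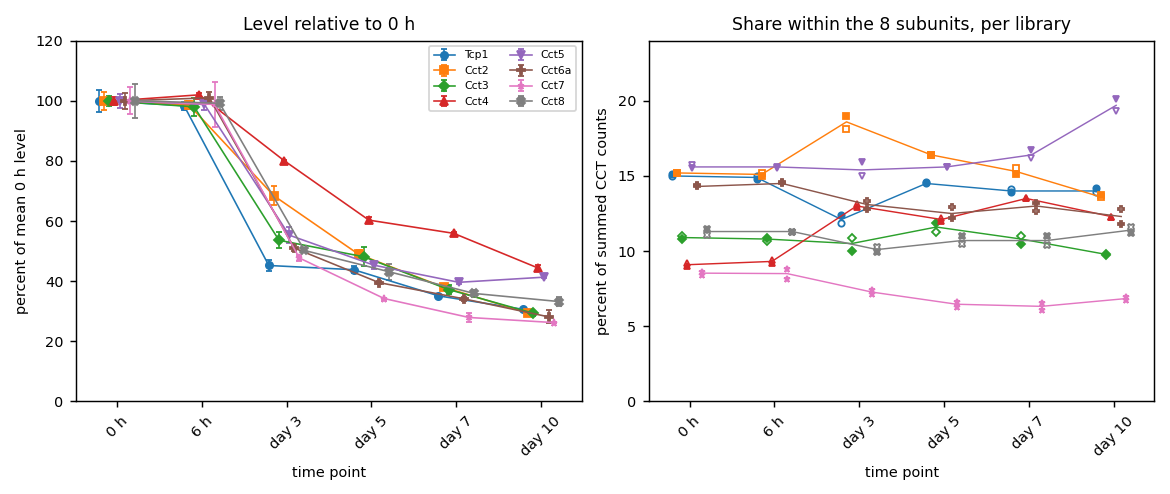
Left, the level of each subunit as a percentage of its mean at 0 h (vertical axis; mean ± SD of 2 libraries) at the 6 time points. Right, each subunit's percentage of the summed CCT counts in each library (filled points are replicate 1, open points replicate 2, lines join means). Cct4 and Cct2 stand above 0 h at day 3, with 13% and 18.6% on average. Cct4 is highest at day 7, with 13.5%, and Cct5 at day 10, with 19.7%.

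Levels of different subunits were compared per kilobase of annotated exons. On that scale (CPM per kilobase of the union of GENCODE exons) Cct5 had 141 and 140 at day 10, against 346 and 335 at 0 h, Cct2 had 104 and 107, against 366 and 351, and Cct7 had 19.9 in both, against 78.3 and 73.5. The order from high to low was Cct5, Cct2, Cct8, Cct6a, Cct4, Tcp1, Cct3 and Cct7 at day 10, where the libraries of Cct8 and Cct6a overlapped. At 0 h it was Cct2, Cct5, Cct6a, Cct8, Tcp1, Cct4, Cct3 and Cct7, with no overlap between neighbours. The highest level was 7.06 times the lowest at day 10 and 4.72 times at 0 h. The exon union joins the exons of all annotated transcripts (6778 bases for the 7 of Cct7, against 2452 in the deposited gene length), and with the deposited length the ratios were 4.00 at day 10 and 2.54 at 0 h. Cct7 was lowest and Cct5 or Cct2 highest with either length, while the order in between depended on it.

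**Figure D3:**
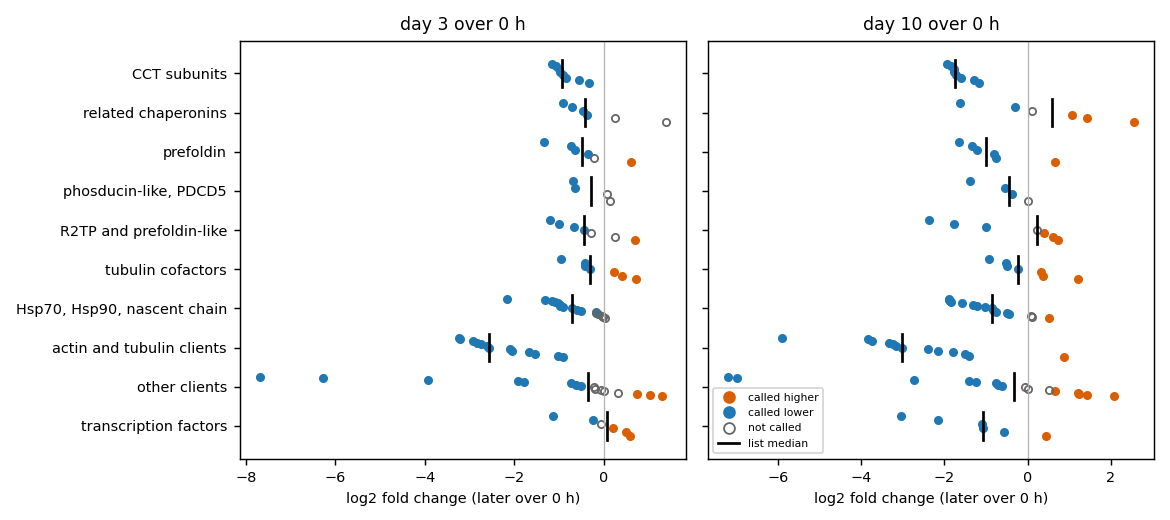
Log2 fold change (horizontal axis) of every tested gene in the CCT list and 9 lists of related genes (rows), at day 3 over 0 h (left) and day 10 over 0 h (right). Each point is a gene, filled where called higher or lower and open where not called, and the bar is the list median; actin and tubulin genes lie lowest, with a median of -3.01 at day 10, and CCT subunits have a median of -1.74.

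Prefoldin, the complex that delivers clients to CCT, was lower as well, with a single subunit gene going up. Of its 6 subunit genes, all tested, 5 fell and 1 rose at day 10 against 0 h (median log2 fold change -1.01), where 39.9% of all tested genes were called lower and 42.8% higher. The same shares apply to every count at day 10 below. Vbp1, the prefoldin 3 gene, had 30.4 and 37.1 CPM at day 10, against 105 and 106 CPM at 0 h (-1.64, SE 0.099, adjusted p = 8.41e-11). Pfdn6 changed by -1.34 (SE 0.11, adjusted p = 3.34e-09), Pfdn4 by -1.21 (SE 0.1, adjusted p = 8.37e-09), Pfdn1 by -0.81 (SE 0.089, adjusted p = 2.48e-07) and Pfdn2 by -0.76 (SE 0.19, adjusted p = 0.00158). Pfdn5, also known as a binding partner of MYC, rose to 117 and 115 CPM at day 10, against 75.0 and 71.7 CPM at 0 h (0.66, SE 0.076, adjusted p = 4.08e-07), and had also risen at day 3 (0.61, adjusted p = 2.04e-06).

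Among the proteins that bind CCT and tune it, 3 of 4 tested genes fell at day 10 and none rose. Pdcl3 had 37.2 and 38.0 CPM at day 10, against 102 and 95.4 CPM at 0 h (-1.39, SE 0.089, adjusted p = 1.79e-10). Txndc9 changed by -0.37 (SE 0.073, adjusted p = 0.00017) and Pdcd5 by -0.54 (SE 0.17, adjusted p = 0.00776), and the call of Pdcd5 was lost without 0 h replicate 1 (-0.46). Pdcl, a helper in the folding of G protein beta subunits, had 70.7 and 78.7 CPM at day 10, against 77.5 and 70.0 CPM at 0 h (0.02, SE 0.078, adjusted p = 0.809). The day 10 and 0 h libraries of Pdcl overlapped, and those of Pdcl3 lay far apart. Pdcl2 was not tested.

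The actin and tubulin clients had a lower median fold change than the chaperonin. Of 13 tested actin and tubulin genes, 13 fell at day 3 against 0 h (median -2.56). Of all tested genes, 35% were called lower and 33.1% higher in that comparison. At day 10 against 0 h, 12 of the 13 fell and 1 rose (median -3.01). Actb, the cytoplasmic beta-actin gene, had 1582 and 1475 CPM at day 10, against 15089 and 13754 CPM at 0 h (-3.24, SE 0.1, adjusted p = 1.11e-14). The tubulin gene Tubb5 had 339 and 300 CPM, against 2934 and 2747 CPM (-3.15, SE 0.12, adjusted p = 2.95e-13). Acta2, Tuba4a and Tubb6 changed by -5.90 (SE 0.35), -3.84 (SE 0.095) and -3.74 (SE 0.12), with adjusted p = 1.43e-06, 7.93e-16 and 7.37e-14. The client that rose was Tubb2a, singled out after its values were seen, with 271 and 280 CPM at day 10, against 142 and 157 CPM at 0 h (0.88, SE 0.11, adjusted p = 7.33e-06). Actin and tubulin genes have near-identical copies and pseudogenes, so reads may have been split between them in the authors' counting.

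Of 16 other reported clients tested, 8 fell and 5 rose at day 10 against 0 h (median -0.33), near the shares of all tested genes (39.9% lower, 42.8% higher), so the counts are no result about this list. The mitotic regulators Cdc20 and Plk1 and the S phase cyclin gene Ccne1 changed by -7.19 (SE 0.17, adjusted p = 3.05e-15), -6.99 (SE 0.17, adjusted p = 6.6e-16) and -2.74 (SE 0.15, adjusted p = 1.99e-11). Gnb1, a G protein beta subunit, changed by -0.75 (SE 0.068, adjusted p = 1.97e-08). Stat3, a transcription factor of cytokine signalling, rose by 1.43 (SE 0.12, adjusted p = 6.39e-08). The proliferation marker Mki67 had 8.60 and 11.3 CPM at day 10, against 988 and 1008 CPM at 0 h, and was already at 14.4 and 7.96 CPM at day 3. All 5 proliferation markers together had 39 and 46.7 CPM at day 10 and 70.6 and 47.4 CPM at day 3, against 3159 and 3100 CPM at 0 h. Their part in the CCT change was not tested.

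Other cytosolic chaperones and nascent chain partners were mostly lower. Of 17 genes of the Hsp70 and Hsp90 systems and the nascent chain complex, 14 fell and 1 rose at day 10 against 0 h (median -0.85). Hsp90ab1, the constitutive Hsp90 gene, had 796 and 773 CPM at day 10, against 2903 and 2774 CPM at 0 h (-1.86, SE 0.073, adjusted p = 2.79e-13). Stip1, which links Hsp70 to Hsp90, and the Hsp90 cochaperone gene Fkbp4 changed by -1.89 (SE 0.072, adjusted p = 1.75e-13) and -1.88 (SE 0.089, adjusted p = 3.06e-12), and the Hsp70 exchange factor gene Hspa4 by -0.85 (SE 0.066, adjusted p = 2.54e-09). The gene that rose was St13, named after its value was seen (0.52, SE 0.075, adjusted p = 7.22e-06).

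In the assembly machinery around R2TP, RUVBL ATPases work with prefoldin-like proteins. Of its 7 genes 3 fell and 3 rose at day 10 (median 0.22), which is about the share of all tested genes (39.9% lower, 42.8% higher). Ruvbl1 and Ruvbl2 changed by -2.37 (SE 0.16, adjusted p = 3.17e-10) and -1.77 (SE 0.12, adjusted p = 1.32e-09), and Rpap3 by -0.99 (SE 0.089, adjusted p = 1.62e-08), while the prefoldin-like gene Uri1 rose by 0.40 (SE 0.068, adjusted p = 3.98e-05). Tubulin cofactors, which take over tubulin released from CCT, had 4 of 7 genes fallen and 3 risen (median -0.24), again near those shares. Without 0 h replicate 1 or without day 10 replicate 1 the counts were 2 fallen and 2 risen. Arl2 rose by 1.22 (SE 0.094, adjusted p = 2.16e-09) and Tbca by 0.37 (SE 0.093, adjusted p = 0.00165). Tbcd changed by -0.93 (SE 0.1, adjusted p = 2.38e-07) and Tbcel by -0.51 (SE 0.17, adjusted p = 0.0121), the last losing its call without 0 h replicate 1 (-0.35) or day 10 replicate 1 (-0.42).

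The mitochondrial chaperonin took another course. Hspd1, which encodes Hsp60, had 199 and 207 CPM at day 3, against 390 and 371 CPM at 0 h (log2 fold change -0.91, SE 0.068, adjusted p = 4.5e-09). It then rose to 367 and 351 CPM at day 5 (day 5 over day 3, 0.82, SE 0.068, adjusted p = 1.68e-08). Its partner gene Hspe1 did the same, with 89.1 and 89.6 CPM at day 5, against 38.5 and 43.1 CPM at day 3 (1.13, SE 0.076, adjusted p = 9.73e-10). At day 10 Hspd1 had 309 and 308 CPM and was lower than at 0 h (-0.30, SE 0.068, adjusted p = 0.000598), and Hspe1 had 71.4 and 72.2 CPM (0.11 over 0 h, SE 0.075, adjusted p = 0.174). No CCT subunit was called higher in that step; the difference between the families was not tested. Of the 6 tested related chaperonin genes, 2 fell and 3 rose at day 10 against 0 h, near the shares of all tested genes (39.9% lower, 42.8% higher). Cct6b, the second zeta subunit gene and known from testis, rose with 1.08 and 0.996 CPM at day 10, against 0.220 and 0.124 CPM at 0 h (2.56, SE 0.63, adjusted p = 0.00123), on 3 and 2 counts at 0 h; with a filter of at least 1 CPM on the mean it was not tested. Bbs10 rose by 1.43 (SE 0.14, adjusted p = 3.33e-08) and Bbs12 changed by -1.62 (SE 0.15, adjusted p = 3.64e-08), both chaperonin-like genes of cilium disease.

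**Figure D4:**
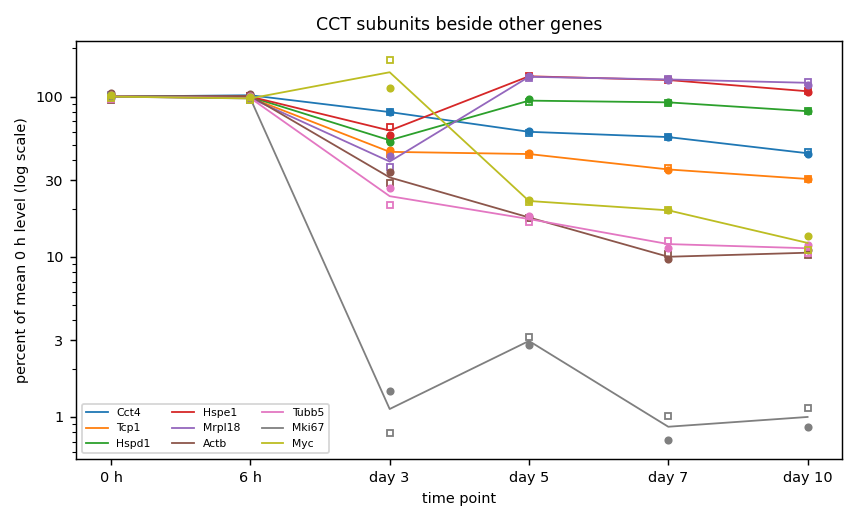
Level of 9 genes as a percentage of their mean at 0 h (vertical axis, log scale) at the 6 time points; filled points are replicate 1, open points replicate 2, lines join means. The CCT genes Cct4 and Tcp1 decline to 44.3% and 30.6% at day 10, Hspd1, Hspe1 and Mrpl18 are low at day 3 and higher at day 5, with Hspd1 at 81.1% of 0 h at day 10, Actb and Tubb5 go lower, Mki67 drops at day 3 and Myc drops between day 3 and day 5.

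Of 6 genes for transcription factors reported at CCT genes, 5 fell and 1 rose at day 10 against 0 h (median -1.08). At day 3 against 0 h, 2 of these genes fell and 3 rose (median 0.07). Of all tested genes, 35% were called lower and 33.1% higher there, so the day 3 counts are no result about this list. The day 3 counts depended on the settings, with 1 fallen and 2 risen by DESeq2. The gene that rose at day 10 was Elk1, named after its value was seen (0.45, SE 0.1, adjusted p = 0.000838). Myc had 11.8 and 9.65 CPM at day 10, against 89.9 and 86.0 CPM at 0 h (-3.04, SE 0.18, adjusted p = 5.75e-09). At day 3 Myc had 99.5 and 150 CPM (0.50 over 0 h, SE 0.14, adjusted p = 0.00821), a call lost without day 3 replicate 2 (0.18) or 0 h replicate 2 (0.47). Srf and Hsf1, the heat shock factor gene, changed by -2.14 (SE 0.086, adjusted p = 3.42e-13) and -1.10 (SE 0.11, adjusted p = 4.73e-08) by day 10.

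The genes whose profile most resembled the mean subunit profile were ranked by Pearson's r of log2 CPM over the 12 libraries among 9279 other genes with a mean of at least 10 CPM. The first 10 were Cd3eap (a subunit of RNA polymerase I), the chromatin remodelling gene Baz1a, the histone chaperone genes Rbbp7 and Supt16, the RNA-binding protein gene Hnrnpab, Gemin5 (of the complex that assembles spliceosomal RNPs), the tropomyosin gene Tpm3, the CTP synthase gene Ctps, Abcf2 and Nop9, with r from 0.9985 to 0.9977. Among the subunits r ran from 0.974 (Cct4) to 0.998 (Cct6a). Each subunit is itself part of that mean profile, so these values cannot be set against those of other genes. The course is a common one, since 147 genes had an r of at least 0.99, and by Spearman's rho only 1 of the 10 stayed among the first 10. All points share the same libraries and the same order in time.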

How the data were processed

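The raw counts per Entrez gene are as deposited by the authors, for 12 libraries; the submitters' processing notes name STAR and mm10, and libraries came from a stranded total RNA kit, per the labels' protocols. What was used to count, and whether by strand, is not stated in these sources. Poly-A+ RNA is named there too. The deposited gene length has no stated definition. Of 17090 identifiers, 17045 were matched to symbols in RefSeq (GRCm38.p6), 4 in GENCODE M21 and 41 in neither.

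Counts were fitted with edgeR 4.0.16 (R 4.3.3): 1 coefficient per time point, all 12 libraries in 1 fit, TMM factors, filterByExpr (minimum count 10, total 15; 12740 genes kept, 4350 removed), a prior count of 0.125, the robust quasi-likelihood F test and Benjamini-Hochberg adjustment over all tested genes, called below 0.05. P-values rest on 6 residual degrees of freedom per gene, pooled over time points, and on spread borrowed across genes by the quasi-likelihood fit. Replicates differed by a chi-square of 4.23 to 15.7 per degree of freedom, above sampling noise.

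The subunits and the gene lists were chosen with earlier results of these data known. Genes named are all subunits, prefoldin and phosducin-like genes, in each other list the 3 called genes with the largest change at day 10 against 0 h and the 2 most abundant, the 10 most alike profiles, and markers. Alternatives were median-of-ratios and upper-quartile factors, no filter, a mean of at least 1 CPM, the replicate number as a block, DESeq2 1.42.0, a fit of the 4 libraries at issue, 1 as prior count, each library left out, and other gene lengths. Processed pseudogenes of subunits exist and could take reads.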

Additional observations from a re-analysis of the deposited data

How the results depend on the processing

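The median log2 fold change of the 8 subunits kept its sign in every alternative for the 5 comparisons that span or follow day 3; at 6 h against 0 h it was near 0 and ran from -0.05 to 0.02 with single libraries left out. With upper-quartile factors it was -0.83 at day 3 against 0 h, -0.41 at day 5 against day 3 and -0.32 at day 7 against day 5. Leaving out single libraries gave medians of -1.77 to -1.71 at day 10 against 0 h, -0.97 to -0.91 at day 3 against 0 h, -0.35 to -0.31 at day 5 against day 3, -0.31 to -0.24 at day 7 against day 5 and -0.28 to -0.20 at day 10 against day 7. It gave 8 called lower at day 3 and at day 10 against 0 h, 4 to 7 at day 7 against day 5 and 3 to 5 at day 10 against day 7. The cause was not tested; a time point left with 1 library is assumed to vary like the others. Over the 9 related lists, 12 genes were called higher and 24 lower at day 7 against day 5 (7 to 12 and 17 to 24 without single libraries; 19% and 18.8% of all genes), and 8 higher and 15 lower at day 10 against day 7 (4 to 9 and 3 to 16; 8 lower with DESeq2; 15.1% and 13.2% of all genes).

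The highest over the lowest subunit per length was 3.84 (0 h) and 6.04 (day 10) with the longest transcript, 1.84 and 2.90 with the coding length (Cct6a, whose coding bases were not used here, left out), and 2.54 and 4.00 with the deposited length, chosen after seeing the data. By Spearman's rho 1 of the 10 most alike genes was shared. The replicate numbers showed little pairing over all tested genes (1 of 15 correlations of deviations was over 0.1, the highest 0.193). Correlations over all tested genes can miss pairing in some of them, so this cannot exclude that the numbers mark the independent experiments. With the replicate block the medians were -1.74 at day 10 and -0.94 at day 3 against 0 h, and 8 subunits were called lower in each. Of 384 single subunit values under other settings, 7 lost their call, 1 gained one and 0 changed sign where called. Values with 1 as prior count are among them and were compared by sign only, so they could not lose or gain a call.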

Other observations

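Some subunit genes start back to back with a protein-coding gene on the other strand. Within 1000 bases of the RefSeq start these were Mrpl18 for Tcp1, Tsacc for Cct3, Atpsckmt for Cct5, Psph for Cct6a and Pradc1 for Cct7, a set taken from the annotation after the values were known. The neighbours did not follow one course. Mrpl18, a mitochondrial ribosomal protein gene, had 26.6 and 22.8 CPM at day 3, against 61.4 and 64.5 CPM at 0 h (log2 fold change -1.35, adjusted p = 4.68e-10 by edgeR). At day 5 it had 84.9 and 82.7 CPM, 1.76 on the log2 scale above day 3, where Tcp1 had 405 and 389 CPM, against 421 and 398 CPM at day 3.

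Pradc1 had 3.11 and 3.95 CPM at day 3, against 6.61 and 7.36 CPM at 0 h (-0.99, adjusted p = 0.000107), and 8.33 and 8.58 CPM at day 10 (0.27 over 0 h, adjusted p = 0.127). Psph, the last enzyme of serine synthesis, had 57.1 and 53.9 CPM at day 3, against 54.7 and 54.1 CPM at 0 h (0.03, adjusted p = 0.805), and 27.2 and 23.7 CPM at day 10 (-1.10 over 0 h, adjusted p = 3.71e-08). Atpsckmt had 14.1 and 15.1 CPM at day 10, against 15 and 15.6 CPM at 0 h (-0.07, adjusted p = 0.606). At day 10 Mrpl18 had 74.9 and 78.2 CPM (0.28 over 0 h, SE 0.08, adjusted p = 0.00373). Tsacc had 1.79 and 2.53 CPM at day 10, against 1.03 and 0.309 CPM at 0 h (1.75, SE 0.48, adjusted p = 0.00297), on 14 and 5 counts at 0 h. In this comparison 39.9% of all tested genes were called lower and 42.8% higher.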
